A study of Homo sapiens with 48 samples.

Results

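The cells described here were 12 untreated samples of the uveal melanoma line 92-1, out of 48 samples in the study. All carried the wild-type genotype label and had received DMSO, the solvent in which the study's drugs were given. In 6 of them the treatment label read negative control, and these served as controls for FHT-1015, an inhibitor of the chromatin remodelling ATPases SMARCA4 and SMARCA2. They were harvested at 4 h (replicates 1 to 3) and at 24 h (replicates 1 to 3) and are called the FHT-1015 set. The other 6 were labelled as negative controls for IDE196, an inhibitor of protein kinase C. They were also harvested at 4 h (replicates 4 to 6) and 24 h (replicates 4 to 6) and are called the IDE196 set. No drug-treated sample enters the comparison. Both sets were the same line, solvent and times, so the comparison gives the gene programs that differ between separate sets of untreated 92-1 samples. The labels call the replicates biological but do not say how they were grown, so p-values measure the spread between these samples. The labels give no date, passage or run for either set: culture, harvest, library preparation and sequencing cannot be told apart here. In bulk RNA, fewer cells of a kind and less RNA per cell cannot be told apart either.

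Uveal melanoma arises from the melanocytes of the eye, and most of these tumours carry an activating mutation of GNAQ or GNA11, the alpha subunits of the Gq class of G proteins. Gq activates phospholipase C beta, whose product diacylglycerol activates protein kinase C and, through RASGRP3, the MAPK cascade; YAP is a further effector. The transcription factors MITF and SOX10 maintain melanocyte identity and drive the pigment genes, with TYR, TYRP1 and DCT as the enzymes of melanin synthesis. SMARCA4 is an ATPase of the BAF chromatin remodelling complex, which MITF and SOX10 use to open chromatin in this lineage.

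Each library held 15970346 to 22683188 reads in genes in the FHT-1015 set and 21586788 to 25466193 in the IDE196 set. The IDE196 set had the line's own expression profile: 21 genes expressed at 20 CPM (read counts scaled to library size) or more in MEL202, another line of the study, but under 0.1 CPM in the FHT-1015 set summed to at most 7.38 CPM in any IDE196 set library. The same sum was 1238 to 1523 CPM in MEL202. For 27 such genes of MP41, the third line, the sum was at most 3.73 CPM, against 1463 to 1780 CPM in MP41. Of 10 melanocyte markers, 9 passed the filter on low counts and S100B did not; the summed level of the 10 was 16638 to 19865 CPM in the IDE196 set and 19384 to 23447 CPM in the FHT-1015 set. Library composition also differed between the sets. Reads outside annotated genes made up 2.23% to 3.01% of reads in the IDE196 set and 4.28% to 6.60% in the FHT-1015 set, and unmapped reads 1.42% to 2.03% against 0.833% to 1.16% (exact permutation test within times, two-sided, p = 0.005 for each, the smallest the design allows, adjusted p = 0.00786 over 11 measures). Their part in the gene differences was not tested.

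Sums over markers are CPM by library size alone; from here on levels of single genes are CPM after TMM scaling unless given as reads. The difference between the sets was wide and mostly modest in size. Of 15605 genes tested with edgeR's quasi-likelihood test, with time as a term, 9879 (63.3%) differed at an adjusted p under 0.05. Of all tested genes, 4859 (31.1%) were higher and 5020 (32.2%) lower in the IDE196 set; throughout, fold changes are the IDE196 set over the FHT-1015 set. A change of at least 2-fold was seen upward in 581 genes (3.72%) and downward in 1521 (9.75%). The median absolute log2 fold change was 0.40 between the sets and 0.12 between 24 h and 4 h. In 2955 genes (18.9%) all 6 IDE196 set libraries lay above all 6 of the FHT-1015 set, and in 2867 (18.4%) all lay below. The largest component of a principal component analysis, holding 57.4% of the variance, put the sets on opposite sides. On the next component, with 9.07% of the variance, 3 FHT-1015 set libraries (4 h replicate 3 and 24 h replicates 2 and 3) stood at -26.2 to -12.3 and the other 3 of that set at 20.8 to 28.0. The IDE196 set libraries lay between -18.9 and 6.44, so the first 3 were apart from the rest of their own set but not from the IDE196 set. Those 3 fall unevenly over the times. They also held 164 to 186 reads of the astrocyte gene GFAP, of which no other library had over 15. Leaving out any one library kept the count of higher genes between 4633 and 5033 and of lower genes between 4764 and 5055. Without those 3 libraries together, a fit added after seeing the data, 4426 genes were higher, 892 of them at least 2-fold, and 4310 lower, 1293 of them at least 2-fold. Many of the lower genes were weakly expressed or non-coding. Among the 9989 protein-coding genes at 5 CPM or more, 4148 (41.5%) were higher and 2891 (28.9%) lower, with 263 and 210 of them at least 2-fold; this subset was chosen after seeing the data.

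The set difference was present at both harvests. At 4 h alone 3947 genes were higher and 3766 lower, and at 24 h 3774 were higher and 3748 lower. Of the genes called at 4 h, 79.6% were also called at 24 h, and of those called at 24 h, 81.6% were called at 4 h. A total of 6136 were called at both times in the same direction and 1 in opposite directions. The Pearson r of the differences at 4 h and 24 h was 0.858; it runs across genes, and genes are not replicates. No gene (0%) had a set difference that changed with time by edgeR's interaction term (592 at an unadjusted p under 0.05; smallest adjusted p = 1.00), nor by DESeq2 (smallest adjusted p = 0.0562) or limma-voom. If no set difference changed with time, 780 genes would be expected at an unadjusted p under 0.05. Time itself changed 522 genes (3.35%), 211 higher and 311 lower at 24 h. That count moved to 203 without the 24 h replicate 2 of the FHT-1015 set and to 1071 without its 24 h replicate 1. With the 3 FHT-1015 set libraries that held the most GFAP reads left out together, it was 62.

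**Figure D1:**
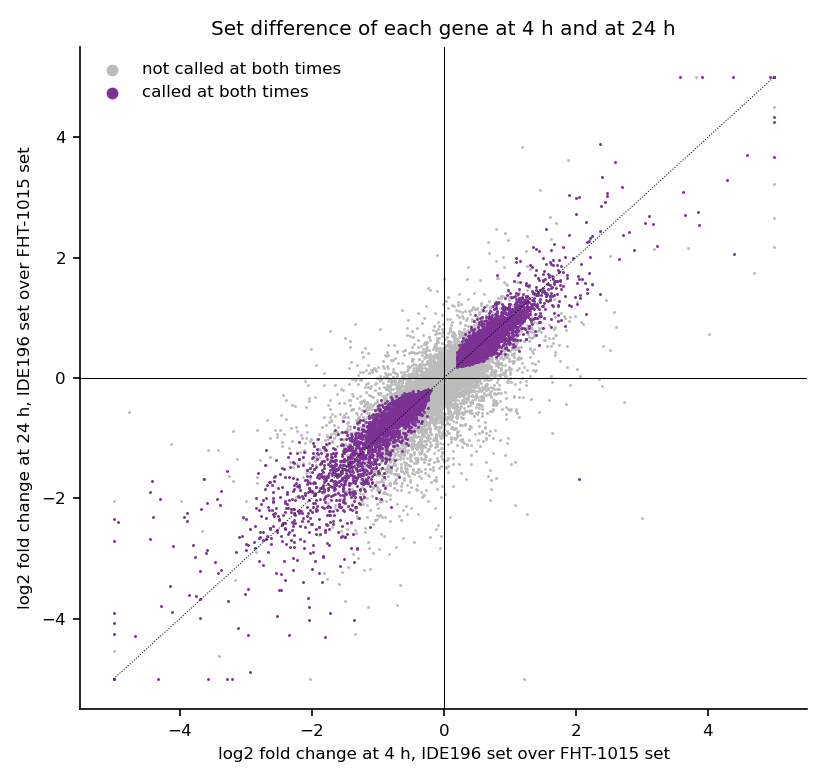
Set difference of every tested gene at 4 h (x axis) against 24 h (y axis), as log2 fold change of the IDE196 set over the FHT-1015 set, clipped at 5 either way. Purple points are the genes called at both times, nearly all (6136) in the same direction; the dotted line marks equal differences.

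The genes most raised in the IDE196 set, among protein-coding genes at 5 CPM or more whose libraries did not overlap between sets, are given here without a test for any shared function. EEF1A2, the muscle and neuron isoform of the elongation factor that brings aminoacyl-tRNA to the ribosome, ran at 7.98 to 10.1 CPM (median 9.49) in the IDE196 set and 0.583 to 2.58 CPM (median 1.24) in the FHT-1015 set (log2 fold change 2.84, SE 0.21, edgeR adjusted p = 3.34e-09). LRP2, the endocytic receptor megalin, ran at 33.4 to 68.4 CPM (median 55.2) in the IDE196 set and 4.75 to 12.2 CPM (median 6.77) in the FHT-1015 set (log2 fold change 2.78, SE 0.19, edgeR adjusted p = 1.74e-09). MAP2, a microtubule-associated protein of neuronal dendrites, was at 23.7 to 37.4 CPM (median 29.99) in the IDE196 set and 4.22 to 9.27 CPM (median 5.37) in the FHT-1015 set (log2 fold change 2.40, SE 0.12). PCSK2, a convertase that cleaves prohormones in secretory granules, was at 27.3 to 63.8 CPM (median 46.5) in the IDE196 set and 8.52 to 14.0 CPM (median 9.88) in the FHT-1015 set (log2 fold change 2.14, SE 0.16). NPTXR, the neuronal pentraxin receptor, was at 51.5 to 82.7 CPM (median 68.7) in the IDE196 set and 16.4 to 22.5 CPM (median 20.03) in the FHT-1015 set (log2 fold change 1.80, SE 0.097). That no library of one set overlapped those of the other was a condition for being named. The level of 5 CPM is a mean over both sets, so a gene could reach it through the set where it was higher. EEF1A2, SAMD11, CYFIP2, NR5A2, CAMK2N1 and COL1A1 were among those that did, with FHT-1015 set means of 1.32 to 3.54 CPM. Their differences describe that choice. Also named were CYFIP2, a WAVE complex subunit that regulates actin (2.24 on the log2 scale), KIF1A, a kinesin that carries synaptic vesicle precursors (1.93), HCN2, a hyperpolarisation-activated channel (1.96, or 1.31 once corrected for GC content and gene length by offsets), and CAMK2N1, an inhibitor of the kinase CaMKII (1.82). The nuclear receptor NR5A2 (2.11) and the imprinted zinc finger gene PEG3 (1.77) were also higher. COL1A1, a chain of type I collagen, was at 6.04 to 22.4 CPM (median 8.72) in the IDE196 set and 1.96 to 3.13 CPM (median 2.94) in the FHT-1015 set (log2 fold change 1.90, SE 0.24, edgeR adjusted p = 1.91e-06). The 22.4 CPM was in the 4 h replicate 6, the library where COL3A1 also peaked. Its log2 fold change was 2.37 at 4 h and 1.39 at 24 h. The remaining named genes depend on how reads in overlapping genes were counted: SAMD11 changed by 2.52, the zinc finger factor MAZ by 1.86 and TGFB1, the secreted ligand of the TGF-beta pathway, by 1.78 as counted without strand, and by 0.82, 0.92 and 0.75 when the 2 stranded columns were summed.

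Genes most lowered in the IDE196 set, under the same limits on type, level and overlap, are likewise given without a test for a shared function. CLK1, a kinase that phosphorylates the SR splicing factors, was at 13.0 to 20.7 CPM (median 15.5) in the IDE196 set and 69.2 to 104 CPM (median 97.0) in the FHT-1015 set (log2 fold change -2.53, SE 0.11, edgeR adjusted p = 2.34e-11). RSRP1, an arginine and serine rich protein, was at 2.89 to 6.71 CPM (median 4.11) in the IDE196 set and 15.7 to 33.9 CPM (median 29.1) in the FHT-1015 set (log2 fold change -2.56, SE 0.19, edgeR adjusted p = 4.61e-09). ARGLU1, a splicing and transcription co-regulator, changed by -2.02 on the log2 scale and PNISR, a further arginine and serine rich protein, by -1.95. SAT1, the acetyltransferase that starts polyamine breakdown, was at 18.4 to 32.7 CPM (median 23.3) in the IDE196 set and 100.3 to 166 CPM (median 121) in the FHT-1015 set (log2 fold change -2.41, SE 0.12, edgeR adjusted p = 4.49e-11). MCOLN3, an endolysosomal cation channel, changed by -1.99, the heat shock factor HSF4 by -2.00, the lysophosphatidic acid receptor LPAR6 by -1.87 and MITD1, which acts in cytokinesis, by -1.86. CCDC14 (-2.19), PABPC1L (-1.83) and AC099489.1 (-1.88) were lower as well. GOLGA8A (-2.69) and GOLGA8B (-2.70) are near-identical copies, so their values are uncertain. RPL36A (-2.48) overlaps an annotated read-through gene on the same strand, so only part of its reads was counted.

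**Figure D2:**
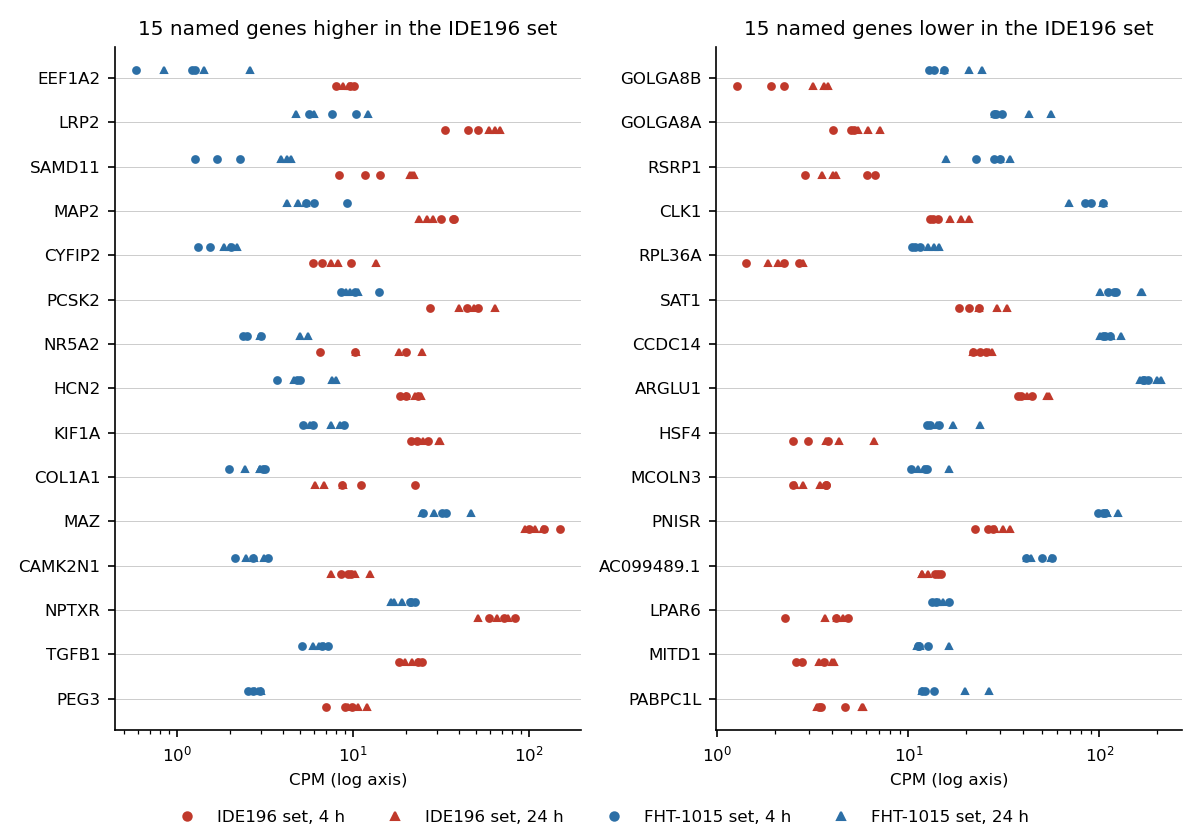
Level of the 15 named genes higher (left) and 15 lower (right) in the IDE196 set, in CPM on a log axis. Each point is a library, red for the IDE196 set and blue for the FHT-1015 set, with circles at 4 h and triangles at 24 h; the red and blue points do not overlap in any row.

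A list of 36 splicing regulators and genes known for retained introns was drawn up after seeing the data, so its counts describe the choice and support nothing. It had 31 members lower and 1 higher, SON (0.33, 0.20 with offsets), with a median log2 fold change of -0.91 against -0.03 over all tested genes. Over all tested genes 32.2% were lower and 31.1% higher, which stand beside this list and the next. SRSF5 (-1.78), SRSF2 (-1.23) and SRSF7 (-1.44), which are SR proteins that bind exonic enhancers, were lower, as were the kinase CLK4 (-1.77), the cyclin CCNL2 (-1.77) and the RNA helicase DDX5 (-1.16). Of 17 host genes of small nucleolar RNAs, a second list chosen after seeing the data and with the same limit, 15 were lower and none higher, with a median of -1.05: SNHG12 changed by -2.50, SNHG1 by -2.27 and GAS5 by -1.74. NEAT1, the long RNA that scaffolds nuclear paraspeckles (GENCODE 29, GRCh38, chromosome 11, 65422774 to 65445540, plus strand), had a mean of 66.5 CPM in the IDE196 set and 417 CPM in the FHT-1015 set (log2 fold change -2.67). MALAT1, a long RNA of nuclear speckles, changed by -0.99. By gene class at 1 CPM or more, 138 of 255 lincRNA genes were lower and 28 higher (median -0.52), and 159 of 301 antisense genes were lower and 22 higher (median -0.49), against 3373 lower and 4482 higher of 11571 protein-coding genes (median 0.07). With GC and length offsets the medians were -0.24 for lincRNA, -0.35 for antisense and 0.06 for protein-coding genes. Antisense genes cannot be told apart from their sense partners in a library that does not mark strand. The share of reads outside genes moved with these classes, as given above, and its part in them was not tested.

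The melanin enzymes TYR and DCT were lower in the IDE196 set, while MITF and SOX10 were higher. MITF was higher in the IDE196 set, at 483 to 571 CPM (median 502) in the IDE196 set and 331 to 439 CPM (median 356) in the FHT-1015 set (log2 fold change 0.51, SE 0.068, edgeR adjusted p = 4.30e-06). SOX10 was also higher, at 543 to 832 CPM (median 674) in the IDE196 set and 378 to 561 CPM (median 467) in the FHT-1015 set (log2 fold change 0.50, SE 0.061, edgeR adjusted p = 1.27e-06), and 0.18 with GC and length offsets. Their libraries did not overlap for MITF and did for SOX10. Over the list of 25 lineage and pigment genes, 21 were tested; MITF and SOX10 were the 2 higher and 11 were lower, with a median of -0.20; with offsets 9 were lower and the median was -0.075. The shares over all tested genes were 31.1% higher and 32.2% lower. BCL2A1, KIT, SLC24A4 and TFAP2B did not pass the filter on low counts. The melanin enzymes and the melanosome channel TRPM1 were among the lower members, so the promoters of the 3 enzymes are shown with the element that MITF binds in them.

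The 250 bases upstream of each enzyme's start come from RefSeq (GRCh38.p14), written 5′ to 3′ on the gene's strand, with the 6-base M-box core CATGTG, or its reverse complement CACATG, in capitals. They span chr11:89177625-89177874 (plus strand) for TYR, chr9:12693135-12693384 (plus strand) for TYRP1 and chr13:94479683-94479932 (minus strand) for DCT, which has a second start in the table, whose promoter at chr13:94549407-94549656 holds no match and is not printed.
TYR: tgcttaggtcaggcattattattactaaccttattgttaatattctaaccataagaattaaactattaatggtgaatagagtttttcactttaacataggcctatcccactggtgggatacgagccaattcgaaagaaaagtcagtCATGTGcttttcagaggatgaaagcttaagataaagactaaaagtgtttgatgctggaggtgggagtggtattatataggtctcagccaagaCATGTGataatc
TYRP1: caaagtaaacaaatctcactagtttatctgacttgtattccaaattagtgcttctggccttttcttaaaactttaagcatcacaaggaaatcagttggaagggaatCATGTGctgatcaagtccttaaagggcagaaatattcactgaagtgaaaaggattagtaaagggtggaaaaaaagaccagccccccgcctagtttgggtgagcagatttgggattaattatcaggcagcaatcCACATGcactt
DCT: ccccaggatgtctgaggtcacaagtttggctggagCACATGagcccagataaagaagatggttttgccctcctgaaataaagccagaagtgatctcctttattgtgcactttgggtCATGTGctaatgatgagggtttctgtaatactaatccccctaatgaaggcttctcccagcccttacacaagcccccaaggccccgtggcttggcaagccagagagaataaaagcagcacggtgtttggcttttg
The first capital lies 104 and 12 bases upstream of the start in TYR, 144 and 11 bases in TYRP1, and 215 and 134 bases in DCT. Of 31 promoters of the list's genes in the table, 13 held the 6 letters on either strand, against 3307 of 35116 promoters of that length (9.42%). A match is a run of letters and not a measured binding site.

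TYR, which carries out the first step of melanin synthesis, was at 109 to 149 CPM (median 114) in the IDE196 set and 268 to 395 CPM (median 309) in the FHT-1015 set (log2 fold change -1.40, SE 0.085, edgeR adjusted p = 3.99e-10). DCT, the dopachrome tautomerase, was at 1.11 to 3.04 CPM (median 1.47) in the IDE196 set and 4.55 to 7.83 CPM (median 5.67) in the FHT-1015 set (log2 fold change -1.75, SE 0.22, edgeR adjusted p = 1.74e-06). In both, every IDE196 set library was below every FHT-1015 set library. TYRP1, the third enzyme, was at 6843 to 8735 CPM (median 7982) in the IDE196 set and 7967 to 10028 CPM (median 9036) in the FHT-1015 set; the ranges overlapped, and its log2 fold change of -0.20 (edgeR adjusted p = 0.0287) became 0.022 with GC and length offsets, where it was no longer called. TRPM1 was at 23.3 to 43.2 CPM (median 29.2) in the IDE196 set and 69.3 to 113 CPM (median 86.3) in the FHT-1015 set (log2 fold change -1.56, SE 0.076, edgeR adjusted p = 4.49e-11), again without overlap. The transporter OCA2 changed by -0.82, RAB27A, which moves melanosomes to the cell edge, by -0.70, and RAB38, which traffics TYR and TYRP1, by -0.50 (-0.075 and not called with offsets). CDK2, which MITF drives in this lineage, changed by -0.84 and the endothelin receptor EDNRB by -0.40. The melanosome matrix protein PMEL was at 6479 to 8035 CPM (median 7252) in the IDE196 set and 8550 to 9317 CPM (median 8698) in the FHT-1015 set (log2 fold change -0.28, SE 0.068) and MLANA at 307 to 384 CPM (median 368) in the IDE196 set and 448 to 553 CPM (median 501) in the FHT-1015 set (log2 fold change -0.49, SE 0.065; -0.20 with offsets). The naming rule gave MITF, SOX10, TYR and TRPM1; the other members with values here were singled out after their values were seen. MITF and TYR differed in opposite directions in these samples, each without overlap between sets.

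**Figure D3:**
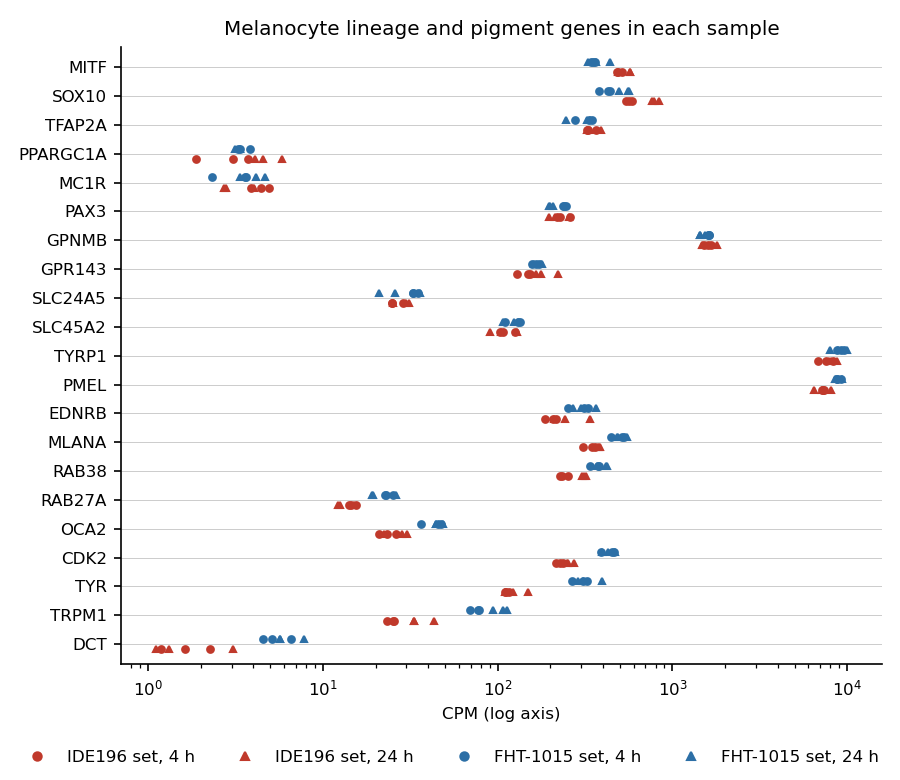
Level of the 21 tested melanocyte lineage and pigment genes in each of the 12 libraries, in CPM on a log axis, with red for the IDE196 set, blue for the FHT-1015 set, circles at 4 h and triangles at 24 h. MITF and SOX10 at the top lie to the right in the IDE196 set, and TYR, TRPM1 and DCT at the bottom lie to the left without overlap.

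Of 10 tested genes that code for the ATPases and for protein kinase C isoforms of any class, 6 were called, a share no higher than the 63.3% of all tested genes. The isoforms that IDE196 inhibits are not told apart here from the others. SMARCA4, a target of FHT-1015, was at 517 to 644 CPM (median 564) in the IDE196 set and 241 to 294 CPM (median 269.6) in the FHT-1015 set (log2 fold change 1.06, SE 0.060, edgeR adjusted p = 1.82e-10), with no overlap, and its log2 fold change was 0.57 with GC and length offsets. SMARCA2, the paralogue, was at 40.0 to 50.3 CPM (median 45.0) in the IDE196 set and 39.4 to 47.7 CPM (median 43.1) in the FHT-1015 set and did not pass the test (log2 fold change 0.065, edgeR adjusted p = 0.416). Of the 28 BAF subunit genes tested, 15 were higher and 5 lower, against 31.1% and 32.2% of all tested genes (median 0.23, and 0.051 with offsets). BCL11A (0.98) was higher, and SMARCE1 (-0.95) and SS18L1 (-0.58) were lower. Protein kinase C isoforms varied among themselves. PRKCB, a classical isoform, changed by 0.86, PRKCI, an atypical one, by 0.24, and PRKCD, a calcium-independent one, by -0.27. PRKCZ, atypical and outside the naming rule, changed by 0.43 (0.056 and not called with offsets). The PRKCI call was lost with library size alone (adjusted p = 0.0518) and in the edgeR fit of all 48 samples (adjusted p = 0.252). PRKCE had 0.22 (edgeR adjusted p = 0.0223), a call lost in 6 other fits, among them those without the 24 h replicate 2 of the FHT-1015 set (0.18) and without the 4 h replicate 4 of the IDE196 set (0.16). PRKCA (0.22), PRKCH (0.071) and PRKCQ (0.050) did not pass the test; PRKCA did without a low-count filter (edgeR adjusted p = 0.0148) and without the 24 h replicate 1 of the FHT-1015 set (0.30 on the log2 scale) or the 4 h (0.29) or 24 h (0.26) replicate 6 of the IDE196 set. GNAQ changed by 0.44 (edgeR adjusted p = 3.39e-05) and GNA11 by 0.51 (edgeR adjusted p = 2.66e-05), but GNA11 was at 0.063 (adjusted p = 0.371) with GC and length offsets. Over the Gq and protein kinase C list, 14 of 25 genes were higher and 3 lower, beside the same shares of all genes (median 0.33, and 0.092 with offsets). DGKZ (1.02, 0.53 with offsets), a kinase that removes diacylglycerol, and PLCB1 (0.97) were higher, and PLCB4 (-0.48), the isoform mutated in some uveal melanomas, and DGKH (-0.37) were lower, DGKH not in the edgeR fit of all 48 samples (adjusted p = 0.105).

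Of genes that report MAPK output, 13 of 20 were higher and 2 lower, against 31.1% and 32.2% of all tested genes, with a median of 0.47. The secreted peptide precursor VGF (1.66, 1.09 with offsets) and the RAS pathway inhibitor SPRED1 (0.89) were higher. The feedback inhibitors SPRY2 (-0.25) and DUSP6 (-0.20) were the lower members. DUSP6 kept its call in only 7 of 23 other fits, losing it in 8 of the 12 that left out 1 library, and stood at 0.05 when the stranded columns were summed. Of 16 immediate early genes with a mean of 5 CPM or more, 6 were higher and 4 lower, against 41.5% and 28.9% of protein-coding genes at that level (median -0.048). Over all 23 tested, among them EGR4 with few reads in the FHT-1015 set, the median was 0.25, and 0.038 with offsets. Among them the AP-1 subunit JUND (0.92, 0.49 with offsets) and the growth factor response gene EGR1 (0.41) were higher, and IER2 (-0.52) and ATF3 (-0.42) lower. SPRY2 and ATF3 were not called with GC and length offsets, IER2 not with the stranded columns summed, and EGR1 not with library size alone (0.32), in the fit of all 48 samples (0.39) or without the 4 h replicate 5 of the IDE196 set (0.34).

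Adhesion and matrix genes are counted among members with a mean of 5 CPM or more, a level chosen after seeing the data, because some weak members passed the filter on low counts through the IDE196 set. That mean is over both sets, so a gene can still reach it through the set where it is higher. COL1A1 did so, with a mean of 10.6 CPM in the IDE196 set and 2.74 CPM in the FHT-1015 set. The counts are thus a description and not a test. Of all protein-coding genes at that level, 41.5% were higher and 28.9% lower. Of 15 integrin and laminin genes, 13 were higher and none lower (median 0.79). ITGA3 was at 22.1 to 32.1 CPM (median 25.7) in the IDE196 set and 5.496 to 11.1 CPM (median 8.46) in the FHT-1015 set (log2 fold change 1.66, SE 0.12, edgeR adjusted p = 1.95e-09), and ITGA6 at 22.0 to 26.8 CPM (median 24.1) in the IDE196 set and 6.84 to 11.4 CPM (median 9.06) in the FHT-1015 set (log2 fold change 1.43, SE 0.099, edgeR adjusted p = 1.70e-09); both are alpha chains of laminin receptors, and neither overlapped between sets. Of 12 collagen and matrix genes, 11 were higher and none lower (median 0.78), with COL6A2, a chain of the microfibrillar type VI collagen, at 1.00 (0.40 with offsets). COL3A1 had at most 3 reads in each FHT-1015 set library and gets no fold change. Of 13 cadherin and adhesion genes, 11 were higher and 1, CDH3, lower (-0.61, median 0.58). The adhesion molecule ALCAM (1.32) and the junction protein plakoglobin, JUP (0.95, 0.63 with offsets), were higher. Of the fibroblast markers, COL1A2 and COL3A1 had at most 4 reads in an FHT-1015 set library and passed the filter through the IDE196 set, so no count of calls is given. The 10 markers summed to 53.4 to 93.2 CPM in the IDE196 set and 32.1 to 54.9 CPM in the FHT-1015 set, most of it TWIST1, and the other 9, COL1A1 and COL3A1 among them, to 8.30 to 41.8 and 3.12 to 5.47 CPM. Their part in the matrix genes was not tested.

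The shares of all tested genes, 31.1% higher and 32.2% lower, stand beside each count that follows here. The actin and SRF list had 16 of 25 genes higher and 5 lower (median 0.44), one of the lower being CNN1, which had few reads in the IDE196 set. FLNA, which crosslinks actin filaments, was at 1520 to 2628 CPM (median 1955) in the IDE196 set and 602 to 978 CPM (median 752) in the FHT-1015 set (log2 fold change 1.38, SE 0.077, edgeR adjusted p = 1.82e-10; 0.84 with offsets). TLN1, which links integrins to actin, changed by 1.15, while the tropomyosin TPM2 (-1.35) and the LIM protein FHL2 (-0.86) were lower. YAP and TEAD targets had 15 of 23 higher and 2 lower (median 0.45): MYOF, a membrane repair protein, changed by 1.76, and the exchange factor DOCK5 by 1.05, while the secreted FSTL1 was lower (-0.47). The TGF-beta and BMP list had 13 of 22 higher and 3 lower (median 0.43). Its ligands TGFB1 and BMP2 (1.505) were higher, whereas the BMP target genes ID2 (-0.80) and ID3 (-0.48) were lower. The NOTCH list had 8 of 15 higher and 3 lower (median 0.48), with the receptors NOTCH3 (1.26, and 0.69 with offsets) and NOTCH1 (0.97, and 0.40 with offsets) higher and the effector HES4 (-0.56, -0.93 with offsets) lower. In the WNT list 5 of 18 were higher, a share below that of all tested genes, and none lower (median 0.12, or 0.0014 without the 24 h replicate 1 of the FHT-1015 set), among them the secreted inhibitor SFRP1 (0.77) and the receptor-clearing ligase ZNRF3 (0.64).

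Of the axon guidance genes 21 of 31 were higher and 3 lower, against 31.1% and 32.2% of all tested genes (median 0.53). The semaphorin receptor PLXNA4 was at 17.6 to 28.0 CPM (median 19.9) in the IDE196 set and 3.63 to 9.11 CPM (median 6.88) in the FHT-1015 set (log2 fold change 1.71, SE 0.14, edgeR adjusted p = 1.75e-08), and the ROBO ligand SLIT2 changed by 1.38, while SEMA6A was lower (-0.69). In a list of neuron and secretory vesicle genes drawn up after seeing the data, whose counts describe that choice, 22 of 30 were tested, 13 were higher and 2 lower (median 1.13); the lower ones were SYT11 (-1.84), which regulates vesicle traffic, and SCG5 (-1.08), the chaperone of PCSK2. Of the 12 tested genes of the undifferentiated melanoma state, 5 were higher, against 31.1% of all tested genes, and 1 lower (median 0.39): the neural crest factor SOX9 (0.97) and the matrix oxidase LOXL2 (0.66, 0.43 with offsets) were higher, and SNAI2 (-0.45, -0.20 with offsets) was lower. The genes used clinically to class uveal melanoma risk had 7 higher and 5 lower of 15, the lower share near the 32.2% of all tested genes (median 0.14), with SATB1 (0.76) and RAB31 (0.74) higher and HTR2B (-0.74, -0.34 with offsets) lower.

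**Figure D4:**
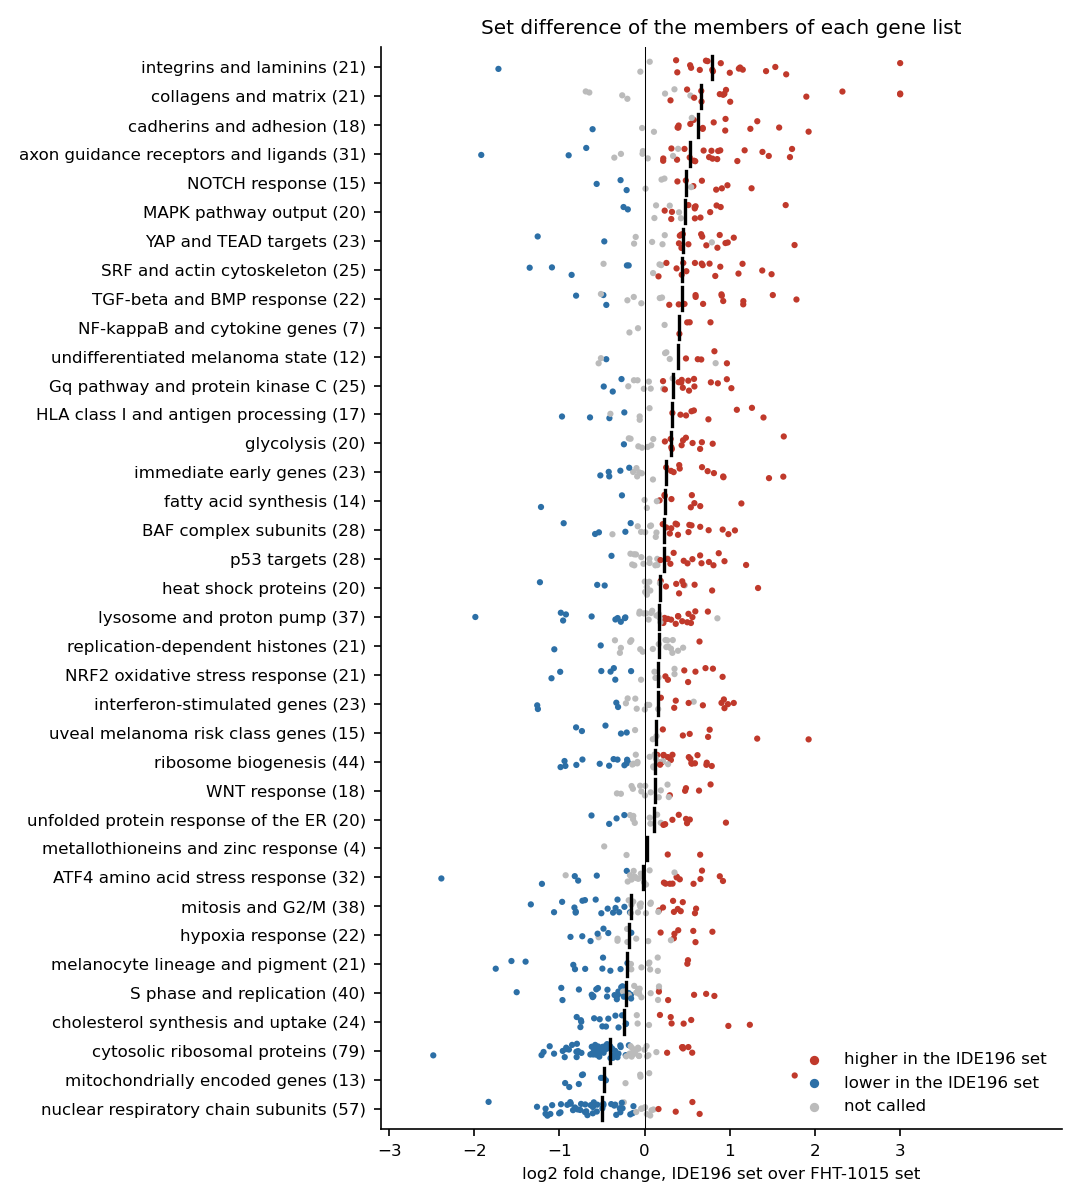
Log2 fold change of each tested member of the 37 gene lists, IDE196 set over FHT-1015 set, clipped at 3 either way, with the number tested in brackets and lists in order of their median (black bar). Red and blue points are called higher and lower genes; medians run from 0.79 for integrins and laminins to -0.50 for respiratory chain subunits, over all tested members.

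In genes of energy and translation, the counts stand beside 31.1% higher and 32.2% lower over all tested genes. Of 57 nuclear genes for respiratory chain subunits, 43 were lower and 4 higher (median -0.50, and -0.29 with GC and length offsets). COX6C, a subunit of cytochrome oxidase, was at 88.6 to 162 CPM (median 144) in the IDE196 set and 311 to 369 CPM (median 324) in the FHT-1015 set (log2 fold change -1.26, SE 0.098, edgeR adjusted p = 5.89e-09), without overlap, and UQCRB of complex III changed by -1.16. ATP5F1D (0.65) of the ATP synthase and UQCRC1 (0.56) of complex III were higher. Of the 13 mitochondrially encoded genes, 8 were lower and 1 higher (median -0.48), but the median was 0.017 with offsets, where 2 were lower and 4 higher. MT-CO2 was at 2292 to 5278 CPM (median 4138) in the IDE196 set and 7018 to 8301 CPM (median 7838) in the FHT-1015 set (log2 fold change -0.93, SE 0.14, edgeR adjusted p = 1.47e-05; -0.42 with offsets), and MT-ND4L changed by -0.88, a call lost with offsets. MT-ATP8 (1.76, and 2.38 with offsets) overlaps MT-ATP6 on the same strand, so only part of its reads was counted. Of 79 cytosolic ribosomal protein genes, 55 were lower and 6 higher (median -0.41, and -0.22 with offsets), from RPS29 (-1.21) among the lower to RPL28 (0.56, 0.36 with offsets) and RPL13 (0.51, 0.33 with offsets) among the higher. These genes have many processed pseudogenes that share their reads. Reads in mitochondrial genes made up 2.74% to 5.04% of reads in genes in the IDE196 set and 5.54% to 6.42% in the other, and those in ribosomal protein genes 7.35% to 10.98% against 10.98% to 12.9%. Ribosome biogenesis genes had 18 higher and 13 lower of 44, the lower share near that of all tested genes (median 0.12), with RRP12 (0.79, 0.43 with offsets) and NOP14 (0.73) higher and NOP16 (-0.99) and GNL3 (-0.94) lower. The NOP16 value ran from -1.08 to -0.43 over the other fits.

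The set difference moved with base composition and length. Among the 11571 protein-coding genes at 1 CPM or more, the median log2 fold change was -0.10 in the tenth with the least GC and 0.43 in the tenth with the most. It was -0.18 in the tenth with the shortest exons and 0.20 in the tenth with the longest. With offsets for both, the medians by GC lay between 0.03 and 0.10. With the same offsets the medians over all tested members were 0.63 for integrins and laminins, 0.42 for collagens and matrix, 0.58 for cadherins and adhesion and 0.41 for axon guidance. They were 0.45 for YAP and TEAD targets, 0.43 for HLA class I and 0.42 for the undifferentiated state, so the order of the lists depends on the correction. By chromosome, the median of protein-coding genes ran from -0.12 on chromosome 13 to 0.23 on chromosome 19, and from -0.049 to 0.13 with offsets.

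In the S phase and replication list 22 of 40 genes were lower and 5 higher, against 32.2% lower and 31.1% higher over all tested genes (median -0.22). RFC4, a subunit of the clamp loader, was at 9.11 to 19.7 CPM (median 15.7) in the IDE196 set and 33.0 to 49.4 CPM (median 41.0) in the FHT-1015 set (log2 fold change -1.50, SE 0.13, edgeR adjusted p = 2.92e-08), and POLE2 of DNA polymerase epsilon changed by -0.98; the licensing factor CDT1 (0.82, 0.46 with offsets) and E2F2 (0.72) were higher. In the mitosis list 17 of 38 were lower and 9 higher (median -0.16), but with offsets 12 were lower and 13 higher (median 0.017). Securin, PTTG1 (-0.97), and CDK1 (-0.82, -0.54 with offsets) were lower, and the kinesin CENPE (0.60) and the mitotic factor FOXM1 (0.59) higher, though CENPE was not called in the edgeR fit of all 48 samples (adjusted p = 0.126). Of 28 tested p53 targets, 14 were higher and 1 lower, beside the same shares of all genes (median 0.23). CDKN1A, the p21 inhibitor of cyclin-dependent kinases, was at 106 to 179 CPM (median 128) in the IDE196 set and 52.6 to 71.0 CPM (median 62.1) in the FHT-1015 set (log2 fold change 1.19, SE 0.11, edgeR adjusted p = 5.42e-08), without overlap, and ZMAT3 changed by 0.94. TRIAP1, the lower member (-0.39), was at 0.059 with offsets and not called. Replication-dependent histones had 1 higher and 2 lower of 21 tested of 55 (median 0.17, and 0.38 with offsets). With 1 library left out that median ran from 0.011 to 0.24. Histone RNAs of this kind lack poly-A tails, which the libraries selected.

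For metabolic lists the shares of all tested genes are 31.1% higher and 32.2% lower. Cholesterol synthesis and uptake had 14 of 24 lower and 7 higher (median -0.24): IDI1 (-0.80) and HMGCS1 (-0.75), early enzymes of the pathway, were lower, and TM7SF2 (1.24) and CYP51A1 (0.98), late ones, were higher. Fatty acid synthesis had 9 of 14 higher and 2 lower (median 0.23, and 0.15 with offsets). FASN, the fatty acid synthase, was at 1779 to 2748 CPM (median 1963) in the IDE196 set and 637 to 1266 CPM (median 910.3) in the FHT-1015 set (log2 fold change 1.14, SE 0.13, edgeR adjusted p = 4.97e-07), and 0.47 with offsets. Glycolysis had 12 of 20 higher and 1 lower (median 0.31), with the glucose transporter SLC2A1 (0.80) and hexokinase HK1 (0.67) higher and PGK1 (-0.24) lower. The hypoxia list had 7 of 22 higher and 7 lower, near the shares of all tested genes (median -0.18), with the demethylase KDM4B (0.80, 0.32 with offsets) higher and WSB1 (-0.87) lower. Lysosomal and proton pump genes had 15 higher and 10 lower of 37 (median 0.17, and 0.041 with offsets), with the protease CTSD (0.74, 0.46 with offsets) higher and the hexosaminidase subunit HEXA (-0.96) lower. HEXA ran from -1.08 to -0.51 over the other fits.

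Counts in the stress and immune lists stand beside 31.1% higher and 32.2% lower over all tested genes. Of 32 tested ATF4 response genes, 12 were higher and 6 lower (median -0.020, and 0.11 with offsets): the glutamine transporter SLC1A5 (0.92) was higher, and ATF4 itself (-0.82) and the stress protein NUPR1 (-1.21) lower. In the ER unfolded protein list 8 of 20 were higher and 4 lower (median 0.11, and 0.19 with offsets), with DNAJC3 (0.95) higher and MANF (-0.42, -0.19 with offsets) lower. Heat shock proteins had 9 of 20 higher and 3 lower (median 0.18), with CRYAB (1.33) higher and HSPE1 (-1.23) lower. The NRF2 list had 8 of 21 higher and 7 lower, near the shares of all genes (median 0.16), with the ferritin heavy chain, FTH1 (0.71), higher and thioredoxin, TXN (-0.99, -0.50 with offsets), lower. FTH1 ran from 0.40 to 1.01 over the other fits. Of 4 tested metallothionein and zinc genes of 11, 2 were higher, the zinc exporter SLC30A1 (0.65) and the regulator MTF1 (0.27), which was not called in the edgeR fit of all 48 samples (adjusted p = 0.186). HLA class I and antigen processing genes had 9 of 17 higher and 4 lower (median 0.33). The peptide-loading genes TAPBP (1.40) and TAP1 (1.26) were higher, and B2M, the light chain of every class I molecule, was lower (-0.64). Interferon-stimulated genes had 10 of 23 higher and 4 lower (median 0.16), with IFI6 (0.93) and IRF7 (0.68, 0.30 with offsets) higher and STAT2 (-0.33) lower. NF-kappaB and cytokine genes were mostly below the filter: 7 of 24 were tested and 4 were higher (median 0.41, and 0.20 with offsets), among them the subunits RELB (0.77, 0.41 with offsets) and NFKB2 (0.53, 0.20 with offsets).

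Few genes were present in one set and absent from the other. Only 8 genes had over 3 reads in all 6 IDE196 set libraries and at most 3 in each of the others, and all were protein-coding. They included SFN, POTEE, COL3A1, GPRC5A, KRT5, KRT8 and KRT19, most of them epithelial or matrix genes. In the other direction there were 21, of which 3 were protein-coding, MSH4, PLAC8L1 and ACSBG1. These are counted over genes of any level, and no gene at 20 CPM or more in one set was under 0.1 CPM in the other.

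Reads of genes foreign to melanocytes appeared at low level and varied between libraries of a set. KRT5, a keratin of basal squamous epithelium, had 119, 67, 133 reads in the 4 h replicates 4 to 6 and 4, 171, 87 in the 24 h replicates of the IDE196 set. KRT8, a keratin of simple epithelium, had 102, 124, 10 and 78, 134, 68 reads in the same order, and FABP1, a fatty acid carrier of liver and gut, had 32, 50, 1 and 24, 53, 43. IGKC, the immunoglobulin kappa constant region, had 5, 79, 266 and 77, 20, 3 reads, highest in the 4 h replicate 6. COL3A1, a fibrillar collagen of fibroblasts, peaked in that same library, with 18, 24, 167 and 5, 6, 21 reads. The muscle gene ACTC1 had 43, 1, 18 and 0, 2, 82 reads, high in other libraries than IGKC. None of these 6 genes had over 2 reads in any FHT-1015 set library. In the FHT-1015 set the astrocyte gene GFAP had 2, 0, 186 reads in the 4 h replicates 1 to 3 and 6, 168, 164 in the 24 h replicates, and the glutamate transporter SLC1A2 was high in the same 3 libraries, with 0, 2, 59 and 0, 66, 78 reads. Over 14 squamous epithelium genes, chosen after seeing the data, the summed level was 1.17 to 53.2 CPM in the IDE196 set and 0.368 to 1.31 CPM in the FHT-1015 set. Over 14 intestinal genes it was 0.857 to 24.0 and 0.054 to 0.965 CPM. The IDE196-treated 92-1 libraries, which this comparison does not use, had 2.78 to 51.7 and 9.55 to 22.3 CPM of the same 2 lists. The MEL202 libraries had 1.03 to 10.7 and 1.26 to 18.2 CPM and those of MP41 1.36 to 9.55 and 7.18 to 21.3 CPM. The FHT-1015-treated 92-1 libraries had 0.209 to 1.14 and 0.452 to 2.82 CPM. Where these reads came from was not tested. Among the marker lists of other cell types, leukocyte markers summed to 0.809 to 4.09 CPM and 0.484 to 1.17 CPM, and endothelial markers to 69.0 to 84.7 and 66.1 to 93.4 CPM, nearly all of it EMCN, with none of 4 tested genes called. Retinal pigment epithelium markers summed to 267 to 344 and 434 to 493 CPM, most of it SERPINF1, and to 11.6 to 16.9 and 27.1 to 33.5 CPM without that gene. The keratinocyte and epithelial markers other than ESRP1 had at most 16 reads in an FHT-1015 set library, and several passed the filter through the IDE196 set alone, so no count of calls is given. The splicing factor ESRP1 was lower, at 35.5 to 45.0 CPM (median 40.1) in the IDE196 set against 45.9 to 55.9 CPM (median 50.8) in the FHT-1015 set. The other 9 markers of that list summed to 9.28 to 29.9 CPM in the IDE196 set and 1.23 to 2.15 CPM in the FHT-1015 set, without overlap.

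**Figure D5:**
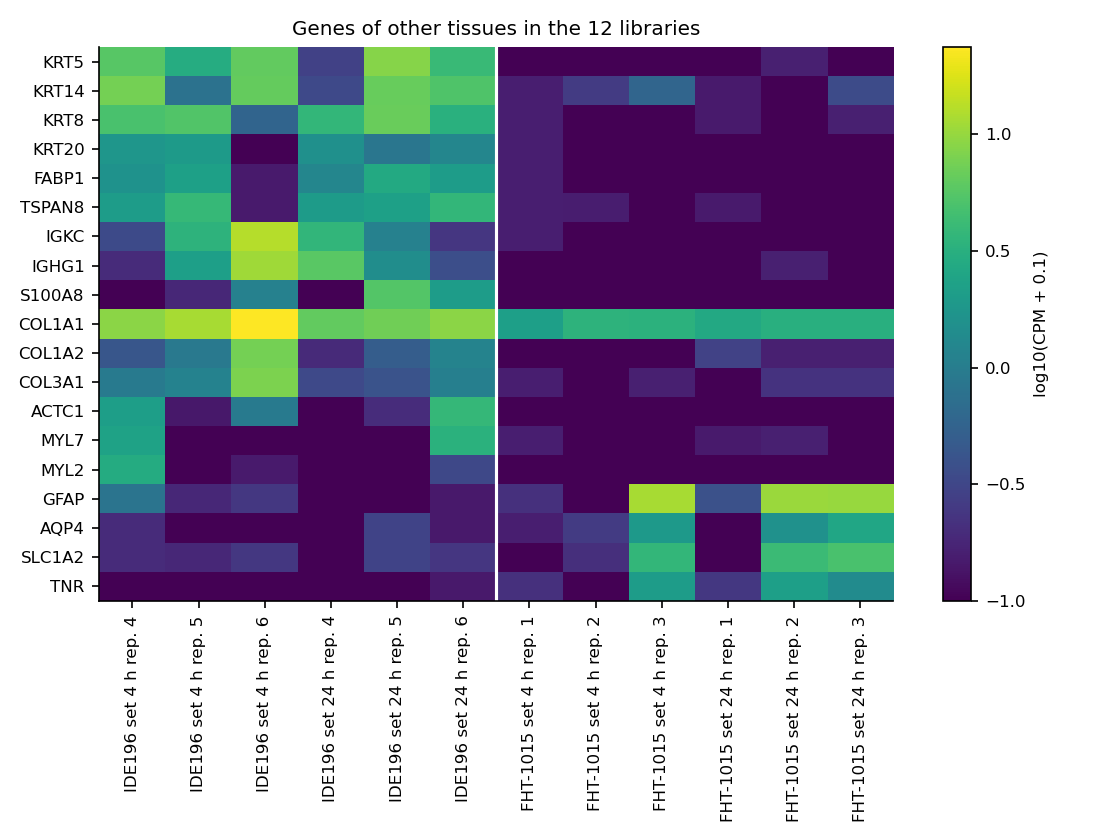
Level of 19 genes of other tissues in the 12 libraries, as log10 of CPM (by library size) plus 0.1, with the IDE196 set left and the FHT-1015 set right of the white line. Keratin, intestinal, immunoglobulin and muscle genes are bright in varying libraries of the IDE196 set, and GFAP and SLC1A2 in 3 libraries of the FHT-1015 set.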

How the data were processed

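Poly-A RNA from frozen pellets of 92-1 cells was made into libraries with a kit that does not mark strand, per the labels' protocols. The values used are raw read counts per gene as deposited by the authors, 1 table per sample in the layout of the STAR aligner; the unstranded count column was used. The submitters' processing notes name hg38 and limma; the aligner version and annotation are not given in the sources used here. Of 58870 gene identifiers, 58552 matched GENCODE 29, whose names and GRCh38 coordinates are used; the 92 spike-in rows held no reads.

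Set differences were fitted with edgeR 4.0.16 (TMM, filterByExpr, quasi-likelihood F-test, time and set as terms, Benjamini-Hochberg over 15605 genes) in R 4.3.3 with limma 3.58.1. Levels of single genes are CPM after TMM; sums over marker, line and other-tissue lists are CPM by library size. DESeq2 1.42.0, limma-voom, other scaling, no filter, summed stranded counts, GC and length offsets, larger fits and left-out libraries were alternatives. On simulated counts with the samples' means, 94.2% of 191 genes changed 2-fold were recovered and 2.70% of calls were false. The simulation gave every gene the same dispersion and changed only those 191 of 15164 genes. In the data 63.3% of genes were called, so these shares do not carry over to the results above. Single library measures were compared by an exact permutation test within times.

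The samples, the 37 gene lists and 6 marker lists were chosen with earlier results of these data known, and 9 more lists were added after seeing the values. Named genes are SOX10, MITF, SMARCA4, SMARCA2, GNAQ, GNA11, the protein kinase C genes, the 15 protein-coding genes each way with the largest fold change (mean of at least 5 CPM, called alike at 4 h and 24 h, no overlap between sets), and up to 4 members of each list. Genes at the floor of 3 reads get no fold change. Some items are not reported here.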

Additional observations from a re-analysis of the deposited data

How the results depend on the processing

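The 12 alternative fits and 12 fits that each left out 1 library were compared with the values above. Of 3726 recomputed values for 162 named genes, 3648 kept their direction and side of the threshold, 66 lost the call, 4 gained one and 8 changed direction; 139 genes kept both in every fit run. Calls were lost most often in the fit of all 48 samples and after GC and length correction. Counts of higher and lower genes stayed within 1.5 times in the fits of all tested genes, and only 2891 were lower among protein-coding genes at 5 CPM or more. Without a filter on low counts 933 genes were at least 2-fold higher, 23 differed by set and time, and 1078 changed with time. The time count of 522 was 1031 by DESeq2 and 1126 by limma-voom with quality weights. With 1 library left out it ran from 203 to 1071: without replicates 1, 2 and 3 of the FHT-1015 set it was 266, 254 and 279 at 4 h and 1071, 203 and 225 at 24 h. Without replicates 4 and 6 of the IDE196 set at 4 h it was 338 each, and without replicates 4, 5 and 6 at 24 h it was 233, 329 and 226. Without the 3 FHT-1015 set libraries with the most GFAP reads, 892 genes were at least 2-fold higher and 62 changed with time. The cause was not tested, beyond each such fit having fewer samples.

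The sets share no replicate numbers, so numbers could pair only the 4 h and 24 h samples within a set. Their deviations from the group means correlated at 0.45, -0.12 and 0.49 for numbers 1 to 3 and at 0.12, -0.11 and 0.19 for numbers 4 to 6, so not every pair was over 0.1 and the numbers were not taken to pair the samples. Numbers 1 and 3 of the FHT-1015 set had the higher values, but not every sample correlated best with its own number. With a replicate block, limma-voom called 842 genes for time and 4664 higher and 4771 lower between sets, and edgeR with a fixed replicate block called 1066 for time.

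List medians moved by more than the spread between replicates as follows, and the cause was not tested. With library size alone in place of TMM, the share of calls that were higher was 40.7% in place of 49.2%, and the medians were 0.38 for MAPK output, -0.27 for hypoxia, 0.22 for glycolysis, 0.096 for heat shock, 0.35 for TGF-beta, 0.052 for risk class genes, 0.24 for Gq, 0.14 for BAF and 0.037 for ribosome biogenesis. With GC and length offsets they were 0.39 for MAPK output, 0.038 for immediate early genes, 0.017 for mitosis, 0.20 for NF-kappaB, 0.37 for NOTCH, 0.63 for integrins, 0.41 for axon guidance, 0.092 for Gq, 0.051 for BAF, 0.041 for lysosome, 0.017 for mitochondrially encoded genes, -0.29 for the respiratory chain, 0.38 for histones and -0.22 for ribosomal proteins. Over members at 5 CPM or more, a choice made after seeing the data, they were 0.59 for MAPK output, -0.048 for immediate early genes, 0.27 for metallothioneins, 0.66 for YAP, 0.28 for WNT and -0.13 for histones. The MAPK median was 0.41 with quality weights and the Gq median 0.22 with the stranded columns summed. With 1 library left out the medians ran from 0.43 to 0.55 for MAPK output, from 0.0014 (without the 24 h replicate 1 of the FHT-1015 set) to 0.21 for WNT, from 0.58 to 0.75 for cadherins and from 0.27 to 0.42 for Gq.

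Direction changed in SMARCA2, PRKCQ and PRKCH, which were not called and had log2 fold changes of 0.065, 0.050 and 0.071. It also changed in DUSP6 (-0.20), TRIAP1 (-0.39) and the histone gene HIST1H4I (-0.52), which were called lower. The reversals were thus not confined to genes with small differences. With library size alone SMARCA2 was at -0.021, PRKCQ at -0.038 and PRKCH at -0.015. With offsets PRKCH was at -0.072 and TRIAP1 at 0.059, and with the stranded columns summed DUSP6 was at 0.054 and HIST1H4I at 0.025. With 1 library left out PRKCQ ran from -0.0074 (without the 4 h replicate 5 of the IDE196 set) to 0.11. Genes with few reads are limited by depth, and a gene absent from a set here may be present below 3 reads a library.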
